A study of Mus musculus with 6 samples.

Results

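The genes described here are 8 transcripts tied to microglial identity, 5 lineage transcription factors (Sall1, Spi1, Mef2c, Runx1, Cebpa), the signal transducer Smad3, and the TGF-beta receptors Tgfbr1 and Tgfbr2. They were chosen by symbol from the 23491 genes of a table of read counts, and all 8 passed the filter on low counts that left 14727 genes. The libraries came from cerebellar microglia of mice labelled Fmr1 knock out, a model of fragile X syndrome, 3 after intraperitoneal poly(I:C) and 3 after saline (sham in the titles). Poly(I:C) is a synthetic double-stranded RNA that mimics viral infection. Both groups carry the knockout and no wild-type group is used here, and the labels give no allele, age, sex, dose or time after injection. Cells were enriched with beads against CD11b, which neutrophils, monocytes and other macrophages carry too. Whether replicates were separate animals is not stated in the labels, so each p-value reflects only how far these libraries scatter, and that scatter may be technical.

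The identity of microglia, the macrophages resident in the brain, rests on a layered set of transcription factors. Spi1 encodes PU.1, an ETS factor without which mice form no microglia, and Runx1 and Cebpa act with it in the myeloid lineage. Sall1 encodes a zinc finger factor that, among macrophages, is largely restricted to microglia, and Mef2c encodes a MADS box factor that opens microglial enhancers. TGF-beta keeps this programme running. The ligand binds the type II receptor Tgfbr2, which recruits and phosphorylates the type I receptor Tgfbr1, and Tgfbr1 phosphorylates Smad2 and Smad3, which enter the nucleus with Smad4.

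Library totals lay between 33710545 and 33781938 counts with poly(I:C) and between 34608620 and 34899835 counts with saline. Levels are given as CPM, read counts relative to the library total after TMM scaling. Summed CPM of 9 microglial markers was 27650, 38250 and 35620 with poly(I:C) and 35060, 39130 and 40650 with saline. Other cells contributed unevenly. The sum of 12 neutrophil markers was 2405, 516 and 608 CPM with poly(I:C) and 21890, 2598 and 2523 CPM with saline. That of 8 monocyte markers was 599, 242 and 283 CPM with poly(I:C) and 2638, 412 and 440 CPM with saline. The sum of 10 choroid plexus markers was 19460, 7677 and 9339 CPM with poly(I:C) and 4063, 8542 and 3993 CPM with saline. All 5 red cell markers had negative log2 differences, poly(I:C) minus saline, with 0 called, and their sum was 45.1, 23.8 and 42.6 CPM with poly(I:C) and 121.6, 444.1 and 52.9 CPM with saline. Poly(I:C) replicate 1 stood apart by its choroid plexus sum, saline replicate 1 by its neutrophil and monocyte sums and saline replicate 2 by its red cell sum. Reads over Fmr1 numbered 2205, 1484 and 1897 with poly(I:C) and 1243, 1336 and 1375 with saline. Since the disrupted part of the gene is not given, these reads check no label.

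Of the 8 genes, 0 were called in edgeR's quasi-likelihood test at a Benjamini-Hochberg adjusted p under 0.05, where 0.957% of all tested genes were called, 0.883% higher and 0.0747% lower. Every poly(I:C) library was below every saline library for Cebpa and Spi1, and the groups overlapped for the other 6. At an unadjusted p under 0.05, 2 of the 8 were lower and 0 higher, against 21.3% of all tested genes in either direction and 10.8% lower. CPM values of the groups did not overlap for 2 of the 8, against 28.4% of all tested genes. Among the 2416 genes expressed at least as highly as Runx1, the lowest of the 8, 38.7% had groups that did not overlap and 27.2% were lower without overlap, so the count of 2 lies near the background. The median log2 difference of the 8 was −0.14, and that of all tested genes was 0.01. Genes expressed at least as highly as Runx1, in 5 groups by GC content (given below), had medians from 0.10 to −0.32.

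**Figure D1:**
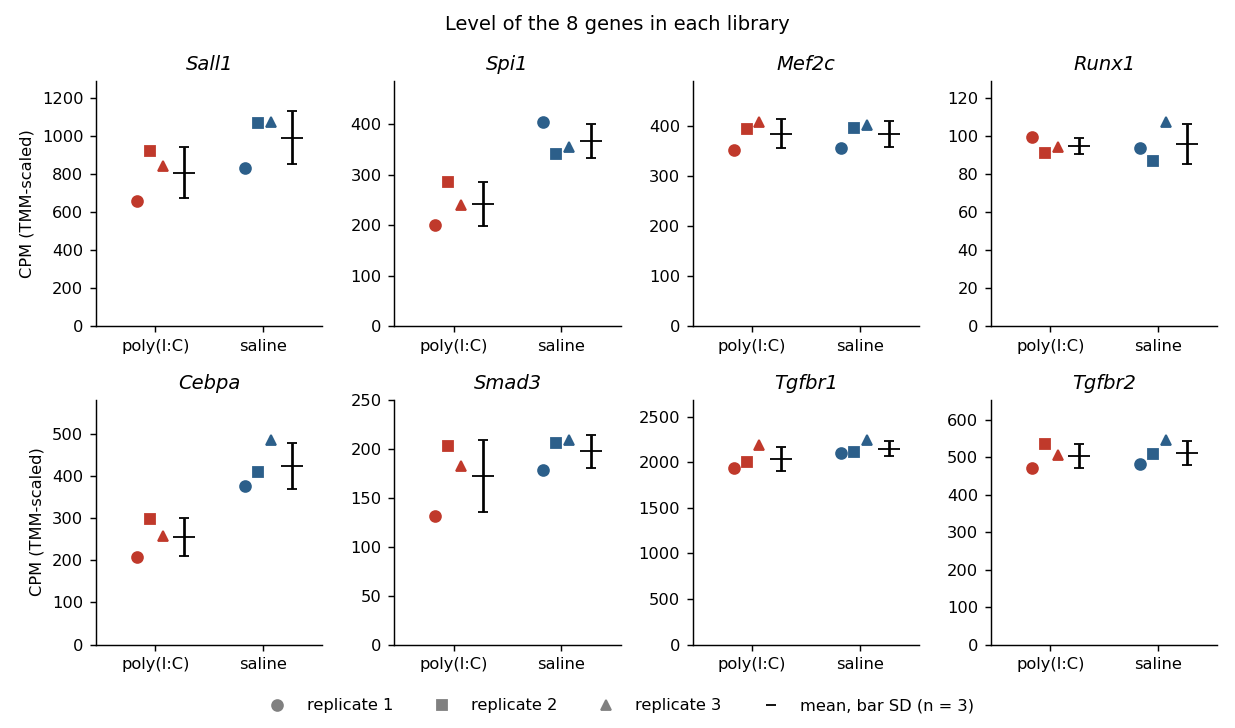
Level of each of the 8 genes in CPM (linear axis from 0), with poly(I:C) on the left and saline on the right of each panel, points for libraries and bars for mean ± SD (n = 3 each). Cebpa and Spi1 are the panels in which every poly(I:C) library lies below every saline library.

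Cebpa, a basic leucine zipper factor needed for granulocyte and macrophage progenitors, had 207.7, 297.5 and 259.2 CPM with poly(I:C), in the order of replicates 1 to 3, and 377.9, 409.7 and 485.6 CPM with saline. All 3 poly(I:C) libraries were below all 3 saline libraries, the nearest being poly(I:C) replicate 2 and saline replicate 1. Saline replicate 1, with the highest neutrophil sum, had the lowest Cebpa of the saline libraries. The part of neutrophils in the Cebpa difference was not tested. The means were 255 ± 45.1 CPM with poly(I:C) and 424 ± 55.4 CPM with saline (SD, n = 3 each), 1.67-fold lower with poly(I:C). The log2 difference was −0.74 (SE 0.16, 95% interval −1.11 to −0.36), with an adjusted p of 0.112 in edgeR. DESeq2 called it lower (log2 difference −0.75, adjusted p = 0.00148), as did limma-voom with quality weights (−0.77, adjusted p = 0.00637), where 4.18% and 10.9% of tested genes were called lower and 4.26% and 8.61% higher. Leaving out each library in turn gave log2 differences between −0.87 and −0.58 with adjusted p between 0.0737 and 0.407 in edgeR. Without saline replicate 2 it was at −0.76 (adjusted p = 0.210). Without poly(I:C) replicate 1 and saline replicate 1 together, edgeR called it lower (−0.66, adjusted p = 0.0293). That fit called more genes in total than the fit with all libraries, with the counts given at the end.

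Spi1 gave 200.9, 286.8 and 239.7 CPM with poly(I:C) and 405.2, 341.2 and 355.2 CPM with saline. The groups again did not overlap, and the highest value was in saline replicate 1, the library with the highest neutrophil marker sum. Neutrophils express Spi1 too, and the monocyte marker sum was also highest in that library. The part of these cells in the difference was not tested. The means were 243 ± 43.1 CPM with poly(I:C) and 367 ± 33.7 CPM with saline (SD, n = 3 each), with a log2 difference of −0.60 (SE 0.14, 95% interval −0.94 to −0.25) and an adjusted p of 0.130 in edgeR. DESeq2 and limma-voom called it lower (adjusted p = 0.00761 and 0.0106). The log2 difference was −0.52 without saline replicate 1 and −0.65 without saline replicate 2 (adjusted p = 0.237 and 0.210), and over all single libraries left out the adjusted p in edgeR lay between 0.0676 and 0.407. Without both number 1 libraries it was −0.38 (adjusted p = 0.117). In bulk samples, fewer cells of a type and less RNA per cell cannot be told apart.

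**Figure D2:**
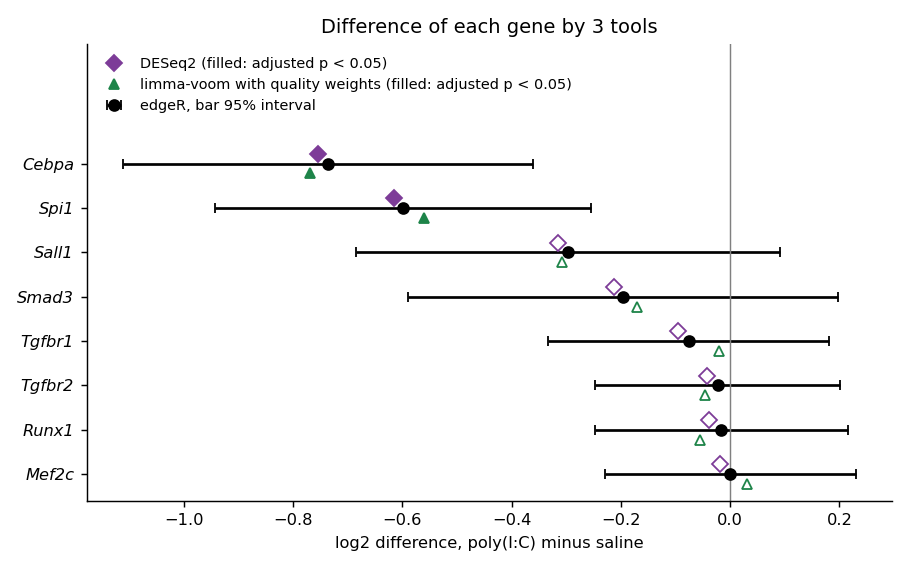
Log2 difference of each gene, poly(I:C) minus saline, with edgeR's value as a black point and its 95% interval, and the values of DESeq2 and limma-voom as coloured symbols that are filled where the adjusted p is under 0.05. Filled symbols occur for Cebpa and Spi1, and the edgeR intervals of the other 6 genes include 0.

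Promoter windows are shown for Cebpa, which had the largest difference, for Mef2c, which had the smallest, and for the receptor gene Tgfbr2, so that their base composition can be compared. RefSeq windows of build GRCm38.p6, from 250 bases before to 50 after the start, were matched by symbol for 7 of the 8 genes (Spi1 has no entry). Capitals mark matches, on either strand, to letters associated with the factors themselves, GAGGAA for ETS factors, TGTGGT for RUNX, TTGCG for C/EBP and CAGAC for SMAD. Longer consensus forms for MEF2 and for interferon-responsive elements were searched too. No 2 matches overlapped in the windows printed. The windows are chr7:35119043-35119342 (plus strand) for Cebpa, chr13:83503784-83504083 (plus strand) for Mef2c, the first of its 3 windows, and chr9:116175314-116175613 (minus strand) for Tgfbr2.
Cebpa: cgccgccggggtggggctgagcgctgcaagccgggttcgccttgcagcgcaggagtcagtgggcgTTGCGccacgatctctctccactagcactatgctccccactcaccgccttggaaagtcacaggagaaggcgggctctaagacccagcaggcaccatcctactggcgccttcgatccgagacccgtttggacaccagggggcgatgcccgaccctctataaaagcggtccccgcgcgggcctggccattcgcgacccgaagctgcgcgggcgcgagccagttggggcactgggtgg
Mef2c: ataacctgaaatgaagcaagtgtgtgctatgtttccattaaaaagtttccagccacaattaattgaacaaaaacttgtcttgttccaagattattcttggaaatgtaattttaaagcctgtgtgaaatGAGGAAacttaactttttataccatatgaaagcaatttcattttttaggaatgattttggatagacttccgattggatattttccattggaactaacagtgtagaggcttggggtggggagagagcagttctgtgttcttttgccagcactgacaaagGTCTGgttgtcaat
Tgfbr2: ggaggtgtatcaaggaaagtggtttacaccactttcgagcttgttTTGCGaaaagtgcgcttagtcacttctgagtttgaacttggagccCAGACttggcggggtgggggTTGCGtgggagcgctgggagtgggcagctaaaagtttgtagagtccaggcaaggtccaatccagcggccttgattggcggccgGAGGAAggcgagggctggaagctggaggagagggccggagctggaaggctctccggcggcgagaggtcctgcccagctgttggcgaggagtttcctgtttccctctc
The GC content was 67.3% in the Cebpa window, 35.7% in the Mef2c window and 59% in the Tgfbr2 window, against a median of 52.7% over all 32851 windows. The other Mef2c windows had 47% and 48.3%. The Cebpa window held 1 match, TTGCG beginning 185 bases before the start. The Tgfbr2 window held 4 matches, the C/EBP letters in 2 places and the ETS and SMAD letters once each. The Mef2c window held the ETS and SMAD letters once each. Among all windows, 28.3% held the ETS letters, 17.4% the C/EBP letters, 49.6% the SMAD letters, 16.8% the RUNX letters, 3.69% the MEF2 form and 3.44% the interferon-responsive form. In the 13 windows of the 7 genes, the interferon-responsive and MEF2 forms occurred in 0. The RUNX letters occurred in 1, where Runx1 itself held them in 2 places, 29 and 37 bases after the start. A match is a description of letters and not of binding.

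Sall1, whose loss in mice moves microglia towards an inflammatory state, had 658.8, 917.3 and 842.5 CPM with poly(I:C) and 832.1, 1067 and 1073 CPM with saline. The groups overlapped, since saline replicate 1 lay below poly(I:C) replicates 2 and 3. The log2 difference was −0.30 (SE 0.16, 95% interval −0.69 to 0.09, adjusted p = 0.317 in edgeR), at 806 ± 133 CPM with poly(I:C) and 991 ± 137 CPM with saline (SD, n = 3 each). It was −0.41 without saline replicate 1 and −0.15 without poly(I:C) replicate 1 (adjusted p = 0.312 and 0.648).

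Smad3, the TGF-beta-activated transcription factor, had 131.2, 203.1 and 182.2 CPM with poly(I:C) and 177.8, 205.3 and 208.4 CPM with saline. Poly(I:C) replicate 1 alone lay below the saline range. The log2 difference of −0.20 (SE 0.17, adjusted p = 0.496 in edgeR) was −0.0094 without that library (adjusted p = 0.976). Poly(I:C) replicate 1 also had the highest choroid plexus sum and the lowest microglial marker sum. The part of cell composition in the Smad3 difference was not tested.

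Mef2c, which in mouse microglia restrains responses to type I interferon, stood at 353.1, 394.3 and 408.9 CPM with poly(I:C) and 355.6, 397.2 and 403.4 CPM with saline. Both groups spanned nearly the same range, with means of 386 ± 29.0 CPM with poly(I:C) and 385 ± 26.0 CPM with saline (SD, n = 3 each). The 95% interval of the log2 difference ran from −0.23 to 0.23 (adjusted p = 0.998 in edgeR).

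Runx1, a Runt domain factor of blood and myeloid development, had 99.15, 91.00 and 93.95 CPM with poly(I:C) and 93.43, 86.68 and 107.3 CPM with saline. The poly(I:C) values all lay inside the saline range. The log2 difference was −0.017 (95% interval −0.25 to 0.22, adjusted p = 0.932 in edgeR), and its sign turned under upper-quartile scaling, library totals and the stricter filter. An annotated antisense gene shares 106 bases of Runx1 exons and another shares 51 bases of Cebpa exons in GENCODE M21, so reads there could come from either strand.

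Both receptor genes had overlapping groups and small differences. Tgfbr1, the signalling receptor kinase, had 1936, 2002 and 2188 CPM with poly(I:C) and 2104, 2112 and 2243 CPM with saline, and the groups overlapped. Its log2 difference was −0.08 (95% interval −0.33 to 0.18, adjusted p = 0.691 in edgeR). Tgfbr2, the ligand-binding receptor, had 470.4, 535.3 and 505.6 CPM with poly(I:C) and 481.5, 508.0 and 545.5 CPM with saline, and the groups overlapped almost fully. Its log2 difference was −0.022 (95% interval −0.25 to 0.20, adjusted p = 0.904 in edgeR), with a sign that turned under upper-quartile scaling, library totals and the stricter filter. The ratio of Tgfbr1 to Tgfbr2 counts within a library, which no scaling can alter, was 4.12, 3.74 and 4.33 with poly(I:C) and 4.37, 4.16 and 4.11 with saline.

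Ratios to Mef2c within a library were lower with poly(I:C), without overlap, for Cebpa, Spi1 and Sall1. Mef2c had the smallest difference of these genes, and the CPM of Sall1 itself overlapped between the groups. The share of all genes whose ratio to Mef2c does not overlap is not given here, so the ratios are descriptions only. The count of Cebpa per Mef2c count was 0.588, 0.754 and 0.634 with poly(I:C) and 1.06, 1.03 and 1.204 with saline. For Spi1 per Mef2c it was 0.569, 0.727 and 0.586 with poly(I:C) and 1.14, 0.859 and 0.880 with saline. For Sall1 per Mef2c it was 1.87, 2.33 and 2.06 with poly(I:C) and 2.34, 2.69 and 2.66 with saline, a narrow gap between poly(I:C) replicate 2 and saline replicate 1. Smad3 per Mef2c overlapped, at 0.371, 0.515 and 0.446 with poly(I:C) and 0.4999, 0.517 and 0.517 with saline. Cebpa per Spi1 was nearly level with poly(I:C), at 1.03, 1.04 and 1.08, and spread more widely with saline, at 0.932, 1.201 and 1.37.

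Setting each gene against the microglial markers of its own library narrowed the spread of Cebpa and Spi1 between poly(I:C) libraries. Per 10000 CPM of summed microglial markers, Cebpa stood at 75.1, 77.8 and 72.8 with poly(I:C) and 107.8, 104.7 and 119.5 with saline. Spi1 stood at 72.7, 75.0 and 67.3 with poly(I:C) and 115.6, 87.2 and 87.4 with saline, and neither gene's groups overlapped. Sall1 was nearly level across poly(I:C) libraries on this scale, at 238.3, 239.8 and 236.5, against 237.3, 272.6 and 263.9 with saline, and saline replicate 1 lay among the poly(I:C) values. Smad3 was at 47.4, 53.1 and 51.2 with poly(I:C) and 50.7, 52.5 and 51.3 with saline. Mef2c and Tgfbr2 lay the other way, without overlap, at 127.7, 103.1 and 114.8 for Mef2c with poly(I:C) and 101.4, 101.5 and 99.2 with saline. Tgfbr2 was at 170.1, 139.9 and 141.9 with poly(I:C) and 137.3, 129.8 and 134.2 with saline. For Runx1 and Tgfbr1 the groups overlapped. These are descriptions with no test, added once the values were known.

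**Figure D3:**
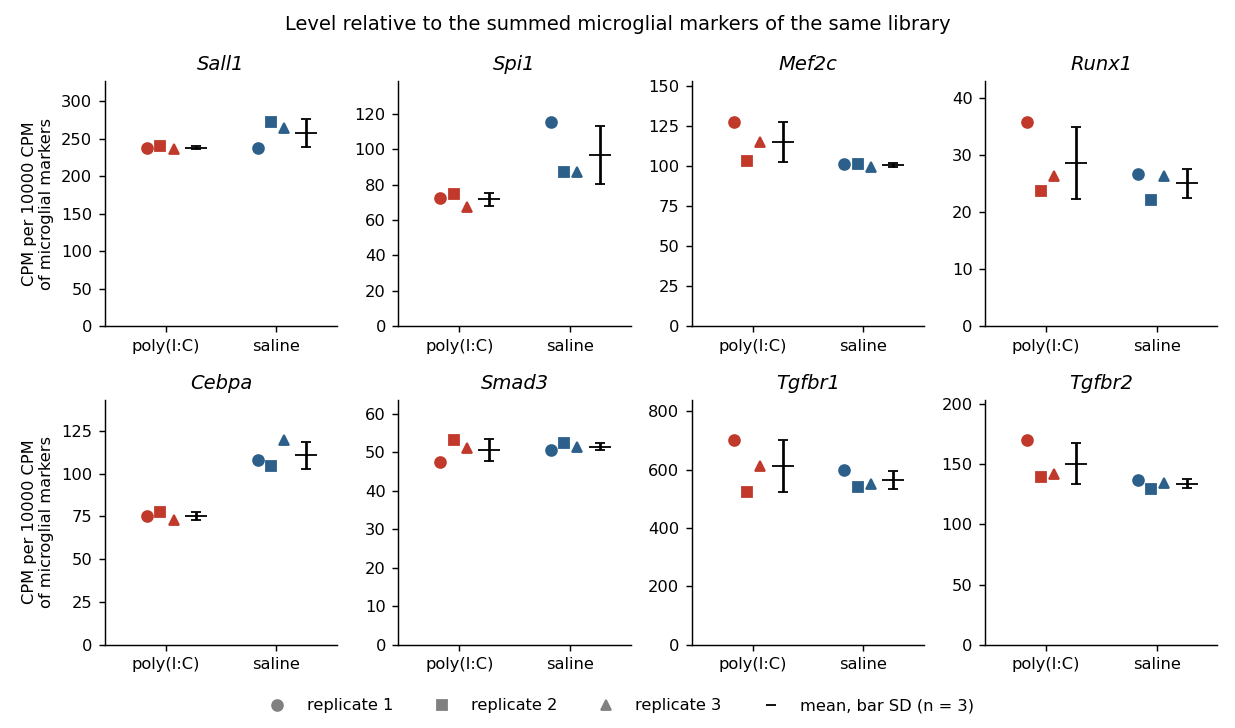
Level of each gene per 10000 CPM of the 9 summed microglial markers in the same library (linear axis from 0), with poly(I:C) left of saline, points for libraries and bars for mean ± SD (n = 3 each). Cebpa lies between 72.8 and 77.8 with poly(I:C) and between 104.7 and 119.5 with saline.

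Levels of different genes were compared per kilobase of annotated exon, with lengths from GENCODE M21. Tgfbr1 was the most abundant of the 8 at 313 ± 20.0 CPM per kb with poly(I:C) and 330 ± 11.9 with saline (SD, n = 3 each), and its range did not meet that of Sall1, next in order at 153 ± 25.3 CPM per kb with poly(I:C) and 188 ± 26.1 with saline. With poly(I:C), Cebpa (78.8 to 112.8 CPM per kb) and Spi1 (74.5 to 106.4) overlapped each other and lay below Sall1 (125.1 to 174.2). With saline, Cebpa (143.3 to 184.2 CPM per kb) overlapped both Sall1 (158.0 to 203.8) and Spi1 (126.6 to 150.4). Tgfbr2 followed at 61.5 ± 3.97 CPM per kb with poly(I:C) and 62.5 ± 3.93 with saline. Smad3 and Mef2c overlapped with poly(I:C), at 31.1 ± 6.68 and 24.5 ± 1.84 CPM per kb, but not with saline, at 35.6 ± 3.05 and 24.5 ± 1.65. Runx1 was lowest, at 7.88 ± 0.34 CPM per kb with poly(I:C) and 7.97 ± 0.87 with saline. The exon union takes in every annotated isoform, so genes with long untranslated regions such as Mef2c are divided by more sequence than 1 transcript holds.

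The base composition of the transcripts differed between the genes and moved with the differences. The longest coding transcript had a GC content of 62.6% for Cebpa and 58.9% for Spi1. The share was 53.1% for Smad3, 51.6% for Sall1, 49.6% for Tgfbr2, 46.4% for Runx1, 41% for Tgfbr1 and 40.8% for Mef2c. Over the 8 genes, Pearson's r between GC content and log2 difference was −0.90, and over the 2367 genes with a GC value and at least the level of Runx1 it was −0.34. These are correlations across genes, which share libraries and are not independent replicates. Divided into 5 equal groups by GC content, those genes had median log2 differences of 0.10, −0.01, −0.10, −0.22 and −0.32 from low to high GC. In the highest group, which runs from 56% to 67.2% GC, 91.8% of genes were lower with poly(I:C), and 2.53% had a log2 difference at or below that of Cebpa and 6.54% one at or below that of Spi1.

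The relation was present among single libraries as well. The correlation across genes of GC content with a library's deviation from each gene's mean log2 CPM was −0.51, 0.14 and −0.40 in poly(I:C) replicates 1, 2 and 3, and 0.14, 0.39 and 0.36 in saline. Poly(I:C) replicate 2 and saline replicate 1 did not differ on this measure at 2 decimals. With each library corrected for GC content, a setting chosen after seeing the data, the log2 difference was −0.47 for Cebpa and −0.42 for Spi1 (adjusted p = 0.267 and 0.280 in edgeR). Under the same correction Tgfbr1 was at −0.32 and Mef2c at −0.25 (adjusted p = 0.418 and 0.512), so that all 8 genes had negative values.

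**Figure D4:**
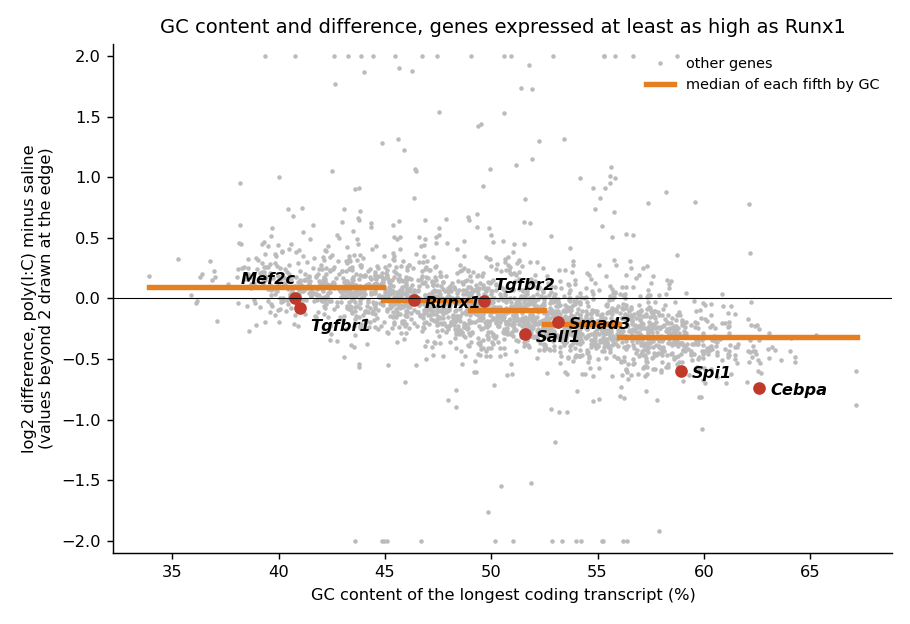
Log2 difference, poly(I:C) minus saline, against the GC content of the longest coding transcript for the 2367 genes with a mean CPM at least that of Runx1, with the 8 genes in red and the median of each of 5 equal GC groups in orange. The medians descend from 0.10 to −0.32, and 33 genes beyond a log2 difference of 2 are drawn at the edge.

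Of 18 tested relatives and partners of the factors, 0 were called in edgeR, 15 had negative log2 differences and the median was −0.21. Of all 14727 tested genes, 7207 had negative differences. Among genes at the level of Runx1 or above, the negative share ran from 26.6% to 91.8% between the lowest and highest GC groups. The groups did not overlap for 6 of the 18, near the 28.4% of all tested genes. Without both number 1 libraries the median was −0.16 and 2 genes were called, in a fit that called more of all tested genes too (counts at the end). Cebpd, induced in acute-phase responses, had 38.5, 63.1 and 43.9 CPM with poly(I:C) and 110.3, 84.5 and 83.9 CPM with saline (log2 difference −0.94, adjusted p = 0.115). Cebpb, a regulator of inflammatory genes, had 110.7, 148.0 and 118.8 CPM with poly(I:C) and 285.8, 164.4 and 242.5 CPM with saline (−0.88, adjusted p = 0.131). Cebpe, a factor of late granulocyte maturation, had 3.92, 0.887 and 0.834 CPM with poly(I:C) and 59.6, 7.25 and 7.61 CPM with saline (−3.72, adjusted p = 0.164). Cebpg, a broadly expressed member of the family, overlapped at 145.3, 126.3 and 136.9 CPM with poly(I:C) and 133.3, 144.7 and 157.0 CPM with saline (−0.09, adjusted p = 0.579). Saline replicate 1 was highest in Cebpe, Cebpd and Cebpb and in the neutrophil and monocyte marker sums. The part of those cells was not tested. All 12 neutrophil markers had negative log2 differences (median −2.82), with 0 called.

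Sall3, a paralog of Sall1, had 69.3, 83.1 and 86.3 CPM with poly(I:C) and 96.2, 116.9 and 155.7 CPM with saline (−0.63, adjusted p = 0.165). Mef2a, a paralog of Mef2c, stood above saline in every poly(I:C) library, at 606.4, 580.8 and 608.5 CPM with poly(I:C) and 471.8, 510.6 and 537.5 CPM with saline (0.24, adjusted p = 0.205), while Mef2d was at −0.39 (adjusted p = 0.179). Smad2 and Smad4, which work with Smad3, had log2 differences of −0.034 and −0.023 (adjusted p = 0.806 and 0.904). Cbfb, the shared partner of RUNX factors, was at −0.018 (adjusted p = 0.932). Smad9, another relative of Smad3, had few counts, at 2.76, 0.621 and 0.546 CPM with poly(I:C) and 0.213, 0.981 and 0.206 CPM with saline (1.48, adjusted p = 0.359). Spib, a relative of Spi1, was also low, at 0.540, 0.207 and 0.0863 CPM with poly(I:C) and 7.88, 0.808 and 0.531 CPM with saline (−3.45, adjusted p = 0.196). The choice of Cebpg, Smad9, Spib, Mef2a, Mef2d, Smad2, Smad4 and Cbfb was made with their values in view.

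Among 32 other myeloid transcription factors, 0 were called in edgeR, and 25 had negative and 7 positive log2 differences. Of all 14727 tested genes, 7207 were negative. Negative shares of genes at the level of Runx1 or above were 26.6%, 52%, 71%, 85.4% and 91.8% across GC groups from low to high. The part of expression level and GC content in the signs of the 32 factors was not tested. The median of the list was −0.21, or −0.12 without both number 1 libraries. Rxra, a nuclear receptor partner, stood at 82.5 ± 6.26 CPM with poly(I:C) and 113 ± 10.6 CPM with saline (−0.46, adjusted p = 0.113). Tfeb, which drives lysosomal genes, stood at 56.7 ± 10.7 CPM with poly(I:C) and 86.5 ± 2.32 CPM with saline (−0.61, adjusted p = 0.120). Nfatc1 and Klf2 had log2 differences of −0.39 and −0.53 (adjusted p = 0.152 and 0.161). Irf8 and Zeb2 are further factors of the microglial programme, picked here with values in view, and stood at −0.14 and −0.08 on the log2 scale (adjusted p = 0.50 and 0.614).

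The genes of TGF-beta supply had differences in both directions. Of 14 tested genes of ligands and activation 0 were called in edgeR, with 9 positive and 5 negative log2 differences and a median of 0.11. Without both number 1 libraries the median turned to −0.23 and 1 gene was called, in the fit that called more of all tested genes too. Leaving out single libraries gave medians between 0.038 and 0.34. Furin, a protease that cleaves the TGF-beta precursor, had 101.7, 129.3 and 110.9 CPM with poly(I:C) and 167.7, 164.8 and 175.0 CPM with saline (log2 difference −0.57, SE 0.10, adjusted p = 0.0724). Tgfb1, the main TGF-beta ligand of microglia, had 226.2, 334.3 and 273.5 CPM with poly(I:C) and 364.2, 396.8 and 425.3 CPM with saline (−0.51, adjusted p = 0.167). Neither gene's groups overlapped. Itgb8, an integrin subunit that activates latent TGF-beta, had 63.6, 17.3 and 20.3 CPM with poly(I:C) and 8.91, 16.1 and 6.34 CPM with saline (1.69, adjusted p = 0.190). Tgfb2, another TGF-beta ligand, had 28.4, 8.54 and 12.1 CPM with poly(I:C) and 5.05, 10.5 and 4.54 CPM with saline (1.28, adjusted p = 0.227). Both were highest in poly(I:C) replicate 1, the library with the highest choroid plexus sum, and within saline in replicate 2, which had the highest choroid plexus sum of that group. The part of those cells was not tested. Nrros, which anchors latent TGF-beta on microglia and was picked with its values in view, was at −0.057 (adjusted p = 0.761).

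Of 10 other receptors of the TGF-beta superfamily, 0 were called in edgeR and the median was 0.12. Eng, a co-receptor, had 217.9, 308.4 and 284.9 CPM with poly(I:C) and 327.8, 388.5 and 388.5 CPM with saline (−0.45, adjusted p = 0.185). The co-receptor Tgfbr3 had 31.7, 10.7 and 16.2 CPM with poly(I:C) and 9.34, 13.2 and 6.69 CPM with saline (1.00, adjusted p = 0.238), highest in the same libraries as Tgfb2. The BMP and activin receptor gene Acvr1 was at −0.25 and the activin receptor gene Acvr2a at 0.24 (adjusted p = 0.240 and 0.269). Of 23 inhibitors and cofactors, 0 were called in edgeR, 13 were negative and 10 positive, and the median was −0.05, or 0.025 with library totals only. Smurf1, a ubiquitin ligase for SMADs, was at −0.33 (adjusted p = 0.190), and Skil, a SMAD corepressor, had 335.8, 306.7 and 330.8 CPM with poly(I:C) and 267.5, 274.4 and 287.9 CPM with saline (0.23, adjusted p = 0.191). The coactivator Ep300 and the adaptor Tab2 were at −0.21 and −0.20 (adjusted p = 0.225 and 0.240). Smad7, the feedback inhibitor that TGF-beta induces, picked with its values in view, was at −0.23 (adjusted p = 0.397).

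Among 19 tested microglial genes that depend on TGF-beta, 0 were called in edgeR, 16 had negative and 3 positive log2 differences, and the median was −0.19. Of all 14727 tested genes, 7207 were negative. For genes at least as high as Runx1, the negative share was 26.6% in the lowest GC group and 91.8% in the highest. GC content varied within the list, for example 38.6% for P2ry12 (−0.27) and 59.5% for C1qa (−0.018). The part of GC content in the signs of this list was not tested. Without both number 1 libraries 1 was called and the median was −0.17, again in the fit that called more of all tested genes. Rhob, a small GTPase gene, had 1338, 1765 and 1569 CPM with poly(I:C) and 2200, 2597 and 2966 CPM with saline (−0.73, adjusted p = 0.118). Trem2, a lipid-sensing receptor gene, stood at 625 ± 171 CPM with poly(I:C) and 881 ± 26.3 CPM with saline (−0.50, adjusted p = 0.221), lowest in poly(I:C) replicate 1 at 449.6 CPM. Sparc, which encodes a secreted matrix protein, was at −0.42 and Jun, an AP-1 factor gene, at −0.29 (adjusted p = 0.236 and 0.266). Across all 6 lists, DESeq2 called 4 relatives and partners, 4 other factors, 3 genes of ligands and activation and 1 TGF-beta-dependent gene, where 8.44% of its tested genes were called. Limma-voom, which called 19.5% of tested genes, called 7, 13, 2 and 4 in those lists, 1 other receptor and 3 inhibitors and cofactors.

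**Figure D5:**
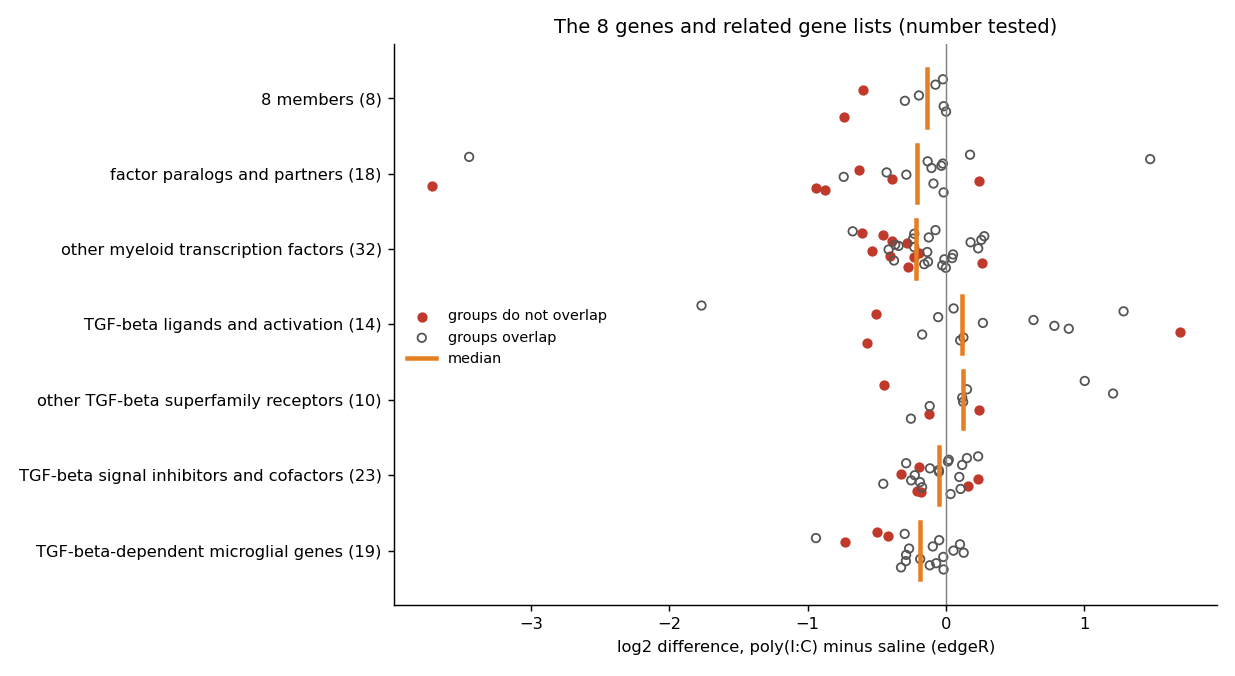
Log2 differences, poly(I:C) minus saline, of the 8 genes and of the tested members of 6 related lists, with filled red points where the CPM of the groups do not overlap, open points where they do, and an orange bar at each median. The medians lie between −0.21 and 0.12.

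The genes whose log2 CPM followed each of the 8 most closely over the 6 libraries, among 10358 others, had Pearson's r between 0.939 and 0.998, given as a description of the same libraries. Cebpa was followed by Mon1a and Cln3, and Spi1 by Gnai2 and Rin3. These 4 had log2 differences of −0.48, −0.55, −0.41 and −0.68 (adjusted p in edgeR = 0.159, 0.129, 0.158 and 0.119). Sall1 was followed by Zfp740 and Dyrk1b, and Smad3 by Abhd12 and Rgs10. Mef2c was followed by Ubash3b and Chd6, and Runx1 by Scpep1 and Btd. Tgfbr1 was followed by Fat3 and Spats2, and Tgfbr2 by Alg5 and Bicral. None of these 16 genes was called in edgeR.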

How the data were processed

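The deposited table holds the authors' raw read counts per gene symbol, with each library in a column of its own. Per the submitters' processing notes, fastp, HISAT2 and HTSeq were used with build GRCm39. For tool versions, annotation and strand setting: not given in the sources used here. Amplified full-length cDNA was made into Nextera XT libraries, per the labels' protocols, so counts are of reads, not molecules, and strand is not marked.

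The test was edgeR 4.0.16 (R 4.3.3) over all 6 libraries without covariate, after filterByExpr and TMM scaling, with quasi-likelihood F tests and Benjamini-Hochberg adjustment over 14727 genes, and each edgeR adjusted p in the text comes from that fit unless a setting is named. Each standard error is the size of the log2 difference over the square root of its F value. Alternatives were RLE, upper-quartile and total scaling, no filter, a filter of 5 CPM in 3 libraries, DESeq2 1.42.0, limma-voom with quality weights (limma 3.58.1), a replicate block, leaving out libraries and removing mitochondrial genes. A loess correction on transcript GC content (GENCODE M21), available for 88% of tested genes, was added after seeing the data. Scripts were tested on simulated data. Replicates differed by more than counting noise (chi-square per gene at least 21.2).

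The 8 genes, the lists and the tests were chosen with earlier results of these data known. Named genes were the 8, in each list up to 4 tested genes of smallest p, and for each of the 8 the 2 genes (mean at least 5 CPM, no predicted or clone name) with the highest Pearson's r of log2(CPM + 0.5). Sall4, Fcrls and Gabra6 were not analysed here. Mef2b, Ltbp2 and Acvr1c had too few counts to be tested. Promoter sequences are RefSeq's, build GRCm38.p6. No coordinates of the counted genes are given because their build differs.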

Additional observations from a re-analysis of the deposited data

How the results depend on the processing

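Cebpa, Spi1, Sall1, Smad3 and Tgfbr1 kept a negative log2 difference in all 17 alternatives. Smad3 came as near 0 as −0.0094 and Tgfbr1 as −0.0022, so for these genes the kept sign says little. Calls depended on the tool. The split was 577 higher to 566 lower in DESeq2 and 1268 to 1608 in limma-voom (130 to 11 in edgeR), each with 2 of the 8 genes lower, Cebpa (−0.75 and −0.77) and Spi1 (−0.62 and −0.56). Without both number 1 libraries edgeR called 355 higher, 214 lower and 1 of the 8, Cebpa (−0.66), and Spi1 was at −0.38. The low-count filter was run again for that fit. Its number of tested genes is not given here, so these calls stand without a share of all tested genes. Lower calls numbered 11 in the fit with all libraries, 18 with no filter and 4 with GC correction. The replicate block gave 171 higher and 89 lower, with Cebpa at an adjusted p of 0.0559. Same-numbered libraries had correlations of 0.15, −0.09 and 0.25 of their deviations from the group means. Not every library correlated best with its own number. With 3 libraries per group, these values cannot tell whether same-numbered libraries shared an animal, litter or day, and no label says so. Leaving out single libraries gave between 51 and 167 higher genes, between 0 and 20 lower and 0 of the 8, with 53 higher without saline replicate 3 and 51 without poly(I:C) replicate 3.

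Signs turned for genes whose differences were near 0, and the cause was not tested. Mef2c was at −0.019 under RLE, −0.011 with no filter, −0.019 in DESeq2, −0.00027 with the replicate block and −0.25 with GC correction. Runx1 was at 0.033 under upper-quartile scaling, 0.059 with library totals and 0.020 with the stricter filter, and Tgfbr2 at 0.027, 0.050 and 0.012, and at 0.0075 without both number 1 libraries. Without single libraries Mef2c ranged from −0.059 to 0.083, Runx1 from −0.086 to 0.070 and Tgfbr2 from −0.072 to 0.048. The median over all tested genes moved by less than 0.1 in every alternative. The median of TGF-beta ligands and activation was −0.23 without both number 1 libraries, with 1 gene called. Without poly(I:C) replicate 2, 1 gene of that list and 1 of the relatives and partners were called. At these depths the lowest count of the 8 genes in any library was 3003, so the spread between libraries and not counting error sets the precision.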
